A study of Mus musculus with 5 samples.

Results

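The TGF-beta and BMP signalling genes described here are Tgfb1, Tgfb2, Tgfb3, Inhba, Inhbb, Bmp7, Tgfbr1, Tgfbr2, Smad3 and Smad7, 10 genes found by name among the 35478 that the count tables list. All 10 passed the filter on low counts and so belong to the 16394 genes tested. RNA-seq was done on kidneys of male mice, labelled as strain C57BL/6J;129 (C57BL/6J in the sample titles), with 1 library per mouse. Of the mice, 2 were Prdm16fl/fl (mice 1 and 3) and 3 were Ksp-Cre/Prdm16fl/fl (mice 1, 2 and 3). The study's methods give 7 to 8 weeks as the age of the mice used for the injury described next. Every mouse had unilateral ischemia-reperfusion injury (UIRI): the left renal pedicle was clamped for 35 minutes on a bath at 38.5°C, the right kidney was taken out on day 10, and tissue was collected 24 hours later, on day 11. Both genotypes are homozygous for a Prdm16 allele with loxP sites around exon 9, and the groups differ by the Ksp-Cre transgene, which puts Cre recombinase under the promoter of kidney-specific cadherin and so limits recombination to tubular epithelium. The comparison asks how the loss of tubular PRDM16, a transcriptional regulator, changes gene expression in the injured kidney. All libraries are of injured kidneys, so levels in an uninjured kidney are not described.

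TGF-β, activin and BMP ligands are secreted dimers that bring together type I and type II serine/threonine kinase receptors. TGF-β and activins act through Smad2 and Smad3, BMPs act through Smad1, Smad5 and Smad9, and both branches share Smad4 and are restrained by the inhibitory Smads. In the kidney, TGF-β1 is best known as a driver of matrix deposition in fibrosis, and BMP7, made by tubular epithelium and podocytes, is needed for nephron formation and is known to oppose TGF-β in injured tubules. The labels name the tissue as kidney and the study's methods as kidney cortex. The counts come from bulk tissue with all its cell types, so a lower count from fewer cells of a type cannot be told apart from less RNA per cell.

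The libraries held 14939040 to 16425161 counted reads. Prdm16, the targeted gene, stood at 25.28 and 20.02 CPM (read counts relative to the library total, scaled by the trimmed mean of M-values, TMM) in the Prdm16fl/fl kidneys and at 17.14, 16.95 and 17.99 CPM in the Ksp-Cre/Prdm16fl/fl kidneys. This is a log2 fold change of -0.38 (adjusted p = 0.259 in edgeR, standard error 0.15), from a count over the whole gene and all cells that does not isolate the floxed exon. Ksp-Cre/Prdm16fl/fl mouse 3 stood apart, with Pearson's r of log2 CPM across genes of 0.943 to 0.960 to the other libraries, while the closest pair in each genotype reached 0.989 and 0.991. For that reason the result of each of the 10 genes is also given without this mouse. Cell type markers differed between the genotypes too. Over all genes tested, 0.104% were called higher and 0.872% lower at an adjusted p under 0.05 in edgeR. All 12 proximal tubule markers were lower in the fit, 1 of them with an adjusted p under 0.05, and they summed to 23030 and 29390 CPM in Prdm16fl/fl kidneys against 7453 to 11700 CPM with Ksp-Cre. All 8 tubular injury markers were higher, again 1 with an adjusted p under 0.05, and their sum was 14960 and 15520 CPM against 32070 to 38050 CPM. The 4 podocyte markers summed to 448 and 579 CPM against at most 331 CPM, with 1 of them called lower, and the 5 erythroid markers to 6.67 and 10.8 CPM against 151, 150.3 and 40.5 CPM. For 6 pericyte and fibroblast markers, the sum was 202 and 274 CPM against 284 to 291 CPM, and for 7 macrophage markers it was 886 and 1258 CPM against 682 to 1440 CPM. Every marker in these 6 lists was detected. The part of these cell types in the results below was not tested.

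None of the 10 signalling genes passed an adjusted p under 0.05 between the genotypes, although most of them separated the 5 kidneys. In edgeR's quasi-likelihood test, 0 of 10 were called higher or lower, where 0.104% of all genes tested were called higher and 0.872% lower. At an unadjusted p under 0.05 the count was 4 higher (Tgfb1, Smad3, Inhba and Inhbb) and 1 lower (Bmp7), beside 7.64% and 11.2% of all genes. For 6 of the 10 genes (Tgfb1, Inhba, Inhbb, Tgfbr1, Smad3 and Smad7) all 3 Ksp-Cre/Prdm16fl/fl kidneys lay above both Prdm16fl/fl kidneys, which held for 20.3% of all genes, and for Bmp7 all 3 lay below, which held for 21.3%. DESeq2 called Inhbb higher and Bmp7 lower, beside 1.87% and 5.33% of genes. Without Ksp-Cre/Prdm16fl/fl mouse 3, edgeR called 6 genes higher (Tgfb1, Tgfb2, Inhba, Inhbb, Tgfbr2 and Smad3) and Bmp7 lower, beside 7.82% and 11.0% of genes. Leaving out Ksp-Cre/Prdm16fl/fl mouse 1 or mouse 2 instead, it called 0 of the 10 and 0 of all genes. The median log2 fold change of the 10 genes was 0.51, and that of all genes tested was 0.04. The plot of levels by mouse shows where single kidneys depart from their group.

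**Figure D1:**
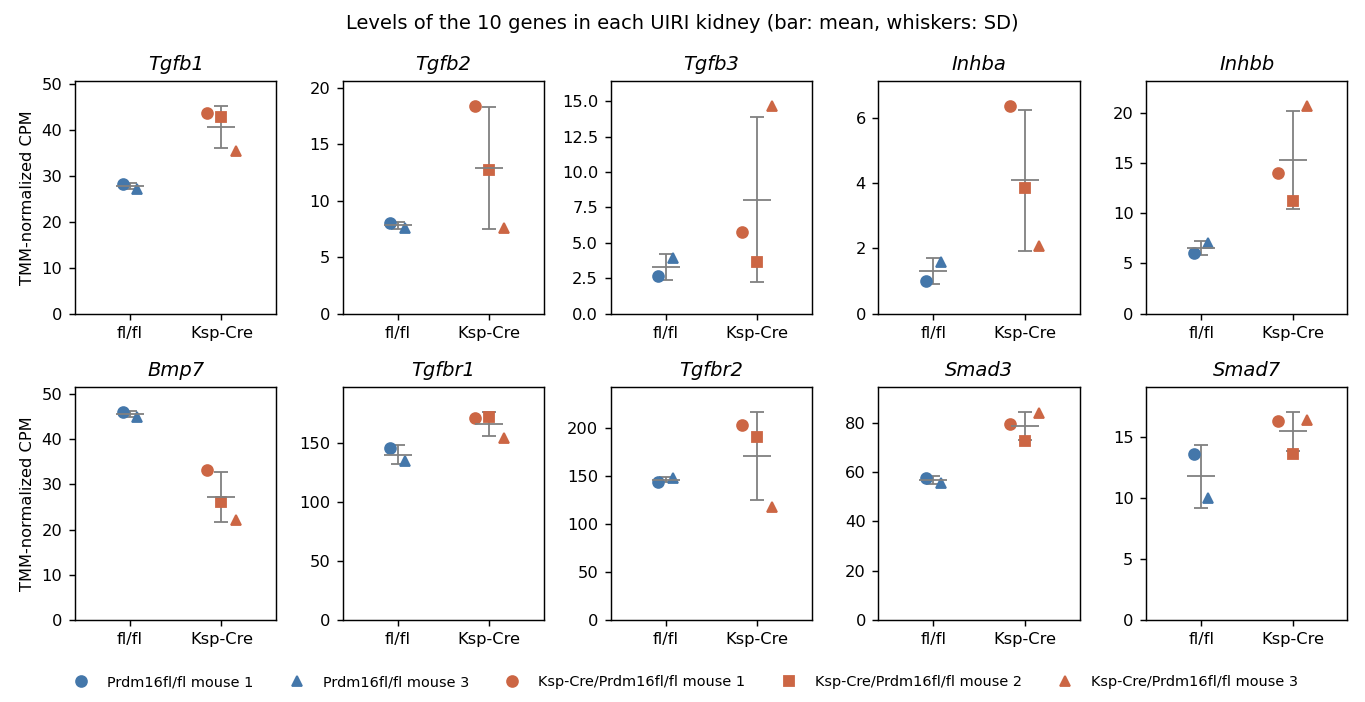
TMM-normalized CPM (y axis, linear from 0, a separate scale for each gene) of the 10 genes in each UIRI kidney, by genotype (x axis). Points are single mice, the long bar is the group mean and the whiskers are the SD. Bmp7 is the gene whose 3 Ksp-Cre/Prdm16fl/fl kidneys (22.2 to 33.2 CPM) all lie below the Prdm16fl/fl kidneys (45.1 and 46.0 CPM), and Ksp-Cre/Prdm16fl/fl mouse 3 is the highest kidney for Tgfb3 and the lowest for Tgfbr2.

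Tgfb1, which encodes the isoform most studied in kidney fibrosis, lies on the plus strand of chromosome 7 from 25386406 to 25404503 in the coordinates of the files, whose mouse build is not given in the sources used here. Its level was 28.2 and 27.2 CPM in Prdm16fl/fl kidneys and 43.5, 42.8 and 35.2 CPM in Ksp-Cre/Prdm16fl/fl kidneys 1, 2 and 3. The groups did not overlap, and mouse 3 was the Ksp-Cre/Prdm16fl/fl kidney nearest to the Prdm16fl/fl range. The means were 27.7 ± 0.697 CPM (SD, n = 2) and 40.5 ± 4.59 CPM (SD, n = 3), a 1.46-fold difference with a log2 fold change of 0.55 (adjusted p = 0.121 in edgeR, standard error 0.14). Leaving out one mouse at a time gave 0.50 to 0.64, and without Ksp-Cre/Prdm16fl/fl mouse 3 the value of 0.64 passed the threshold (adjusted p = 0.0046).

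The other isoforms were low and uneven among the Ksp-Cre/Prdm16fl/fl kidneys. Tgfb2 (chromosome 1, 186354984 to 186441504, minus strand), whose product needs the co-receptor betaglycan to bind its receptors well, had 8.02 and 7.61 CPM in Prdm16fl/fl kidneys and 18.4, 12.8 and 7.60 CPM in Ksp-Cre/Prdm16fl/fl kidneys 1, 2 and 3. Mice 1 and 2 were above both Prdm16fl/fl kidneys, and mouse 3 was level with the lower of them. The log2 fold change was 0.73 (adjusted p = 0.354, standard error 0.37), and 1.0 without mouse 3 (adjusted p = 0.0124). Without Ksp-Cre/Prdm16fl/fl mouse 1 it was 0.38. Tgfb3 (chromosome 12, 86103517 to 86125815, minus strand) showed the opposite pattern, with 2.63 and 3.95 CPM in Prdm16fl/fl kidneys and 5.79, 3.66 and 14.7 CPM in Ksp-Cre/Prdm16fl/fl kidneys. Mouse 3 was far above the other two, and mouse 2 lay inside the Prdm16fl/fl range. Its log2 fold change of 1.28 (adjusted p = 0.335, standard error 0.63) was 0.53 without mouse 3 (adjusted p = 0.262). A gene of the opposite strand, LOC118567974, shares 574 bp of exon with Tgfb3, 17.0% of its exon length, and had 8 and 16 counts in Prdm16fl/fl kidneys and 13, 10 and 51 counts in Ksp-Cre/Prdm16fl/fl kidneys, again highest in mouse 3. Genes of the opposite strand also share exon with 3 others of the 10. Gm35655 covers 25.6% of the exon length of Tgfb2 and had at most 1 count per kidney. Gm41776 covers 31.5% of Smad7 and had 0 counts, and Gm40582 covers 8.8% of Tgfbr2 and had 14 to 27 counts. Whether counting used the strand is not given in the sources used here, so the reads of each such pair cannot be told apart. It is likewise not known whether reads in the shared exons were counted for either gene. The effect on the levels of these genes was not tested. The sum of 6 endothelial markers was also highest in mouse 3, at 408 CPM against 228 to 275 CPM in the other kidneys. Their median log2 difference from the Prdm16fl/fl mean was 0.29 in mouse 3 and -0.19 to 0.06 in the other kidneys. Between the genotypes these markers were split, with 3 positive and 3 negative log2 fold changes. The part of endothelial cells in the Tgfb3 level was not tested.

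Per length, Tgfb1 made up most of the isoform transcripts in every kidney. In TPM, which divides counts by exon length and scales every library to the same total, its share of the summed 3 isoforms was 88.2% and 85.7% in Prdm16fl/fl kidneys and 83.7%, 88.3% and 75.4% in Ksp-Cre/Prdm16fl/fl kidneys. The share of Tgfb3 was 5.34% and 8.08% against 7.22%, 4.90% and 20.4%, so that mouse 3 alone lay outside the range of the other kidneys by a wide margin. For Tgfb2 the share ran from 6.18% to 6.47% in Prdm16fl/fl kidneys and from 4.19% to 9.11% in Ksp-Cre/Prdm16fl/fl kidneys, an overlap.

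**Figure D2:**
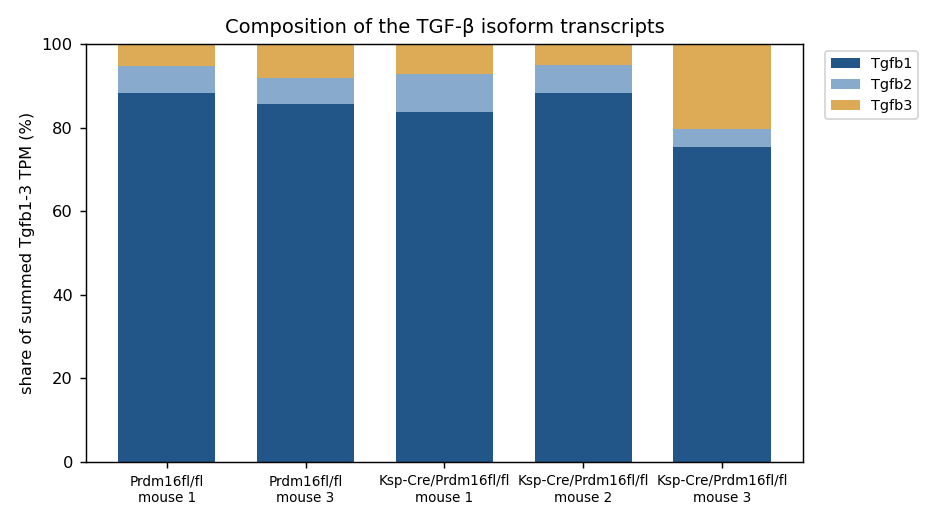
Share of each TGF-β isoform in the summed TPM of Tgfb1, Tgfb2 and Tgfb3 (y axis, percent) in each kidney (x axis, one bar per mouse). Tgfb1 holds at least 75.4% in all 5 kidneys, and Tgfb3 reaches 20.4% in Ksp-Cre/Prdm16fl/fl mouse 3.

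The activin subunit genes had the greatest fold changes of the 10 that also kept the groups apart. Inhba (chromosome 13, 16178841 to 16206194, plus strand) encodes the βA subunit, whose dimer is activin A, a ligand that signals through Smad2 and Smad3 like TGF-β. It was rare, with 15 and 22 reads in Prdm16fl/fl kidneys and 112, 65 and 31 reads in Ksp-Cre/Prdm16fl/fl kidneys, or 1.011 and 1.579 CPM against 6.36, 3.84 and 2.07 CPM. The groups did not overlap, but mouse 3 was close to the Prdm16fl/fl kidneys. The Prdm16fl/fl mean was 1.29 ± 0.401 CPM (SD, n = 2) and the Ksp-Cre/Prdm16fl/fl mean 4.09 ± 2.16 CPM (SD, n = 3). The log2 fold change of 1.66 (standard error 0.55) did not pass the threshold (adjusted p = 0.192). It was 1.19 to 2.01 with each mouse left out, and 1.98 without Ksp-Cre/Prdm16fl/fl mouse 3 (adjusted p = 0.0078).

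Inhbb (chromosome 1, 119343193 to 119349978, minus strand), for the βB subunit of activin B, had 6.00 and 7.03 CPM in Prdm16fl/fl kidneys and 14.0, 11.2 and 20.7 CPM in Ksp-Cre/Prdm16fl/fl kidneys. Every Ksp-Cre/Prdm16fl/fl kidney was well above both Prdm16fl/fl kidneys, and here mouse 3 was the highest. The means were 6.52 ± 0.730 CPM (SD, n = 2) and 15.3 ± 4.88 CPM (SD, n = 3), 2.34-fold apart, with a log2 fold change of 1.23 (adjusted p = 0.114 in edgeR, standard error 0.30). DESeq2 gave 1.23 with an adjusted p of 0.0086, and edgeR without mouse 3 gave 0.95 (adjusted p = 0.0108). The ratio of Inhba to Inhbb on the TPM scale was 0.0493 and 0.0657 in Prdm16fl/fl kidneys and 0.133, 0.101 and 0.0293 in Ksp-Cre/Prdm16fl/fl kidneys, so that the ratio was above the Prdm16fl/fl range in mice 1 and 2 and below it in mouse 3.

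The promoter windows of 4 ligands are shown because they include the activin subunits (Inhba, Inhbb), whose fold changes were the greatest among genes without overlap of the groups, beside 2 TGF-β isoforms (Tgfb1, Tgfb2). Windows of 250 bases before to 50 bases after the start site come from the RefSeq table for GRCm38.p6, a build whose coordinates differ from those of the files. Used here were 8 windows of 7 of the 10 genes. No window of Tgfb3, Bmp7 or Smad7 was examined, so the window counts below do not cover these genes. Capitals mark CAGAC or its reverse complement GTCTG, the core that Smad3 and Smad4 bind.
Tgfb1 (chr7:25686752-25687051, plus strand): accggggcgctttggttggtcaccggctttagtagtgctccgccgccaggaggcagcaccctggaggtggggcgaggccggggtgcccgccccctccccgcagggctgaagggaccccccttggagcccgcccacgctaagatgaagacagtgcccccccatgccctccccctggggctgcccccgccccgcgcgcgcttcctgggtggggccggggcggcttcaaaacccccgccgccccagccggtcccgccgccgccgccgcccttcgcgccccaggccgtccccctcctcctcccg
Tgfb2 (chr1:186705940-186706239, minus strand): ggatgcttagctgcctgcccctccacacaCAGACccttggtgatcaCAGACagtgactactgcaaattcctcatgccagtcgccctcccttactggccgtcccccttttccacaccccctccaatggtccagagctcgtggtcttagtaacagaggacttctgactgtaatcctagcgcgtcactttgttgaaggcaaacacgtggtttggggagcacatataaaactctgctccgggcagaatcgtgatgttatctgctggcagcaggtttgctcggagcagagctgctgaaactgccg
Inhba (chr13:16011601-16011900, plus strand): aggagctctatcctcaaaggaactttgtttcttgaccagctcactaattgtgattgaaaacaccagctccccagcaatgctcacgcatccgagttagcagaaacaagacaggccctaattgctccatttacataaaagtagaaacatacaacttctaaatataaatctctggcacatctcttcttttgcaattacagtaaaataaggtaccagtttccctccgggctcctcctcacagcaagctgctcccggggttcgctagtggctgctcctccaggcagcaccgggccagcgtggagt
Inhbb (chr1:119422199-119422498, minus strand): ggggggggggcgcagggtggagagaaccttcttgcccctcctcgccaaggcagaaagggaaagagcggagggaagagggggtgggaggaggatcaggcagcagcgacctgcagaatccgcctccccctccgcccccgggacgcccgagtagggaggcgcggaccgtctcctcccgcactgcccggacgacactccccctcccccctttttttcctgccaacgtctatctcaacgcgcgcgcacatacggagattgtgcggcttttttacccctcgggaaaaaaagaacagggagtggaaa

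Tgfb2 held 2 matches to the core, starting at positions -221 and -204 from the start site, while the windows of Tgfb1, Inhba and Inhbb held no match. Among the windows not printed, 1 of the 2 of Tgfbr1 (at -203) and that of Tgfbr2 (at -160) held it and that of Smad3 did not. Thus 3 of 8 windows contained CAGAC on either strand, against 49.6% of 32851 promoter windows of the same length. GGCGCC, a GC-rich Smad element that reads the same on both strands and shares no base with CAGAC here, was present in 1 of 8 windows (Tgfbr1, at -233) and in 11.9% of all windows. These matches are letters in a window and no measure of binding.

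Bmp7 (chromosome 2, 172709805 to 172782114, minus strand) was the one gene of the 10 with a negative log2 fold change. Its level was 46.0 and 45.1 CPM in Prdm16fl/fl kidneys and 33.2, 26.2 and 22.2 CPM in Ksp-Cre/Prdm16fl/fl kidneys 1, 2 and 3, so that the groups were clearly apart and the Prdm16fl/fl kidneys almost equal. The means were 45.5 ± 0.696 CPM (SD, n = 2) and 27.2 ± 5.58 CPM (SD, n = 3), 0.597 of the Prdm16fl/fl level, with a log2 fold change of -0.74 (adjusted p = 0.113 in edgeR, standard error 0.18). DESeq2 gave the same -0.74 and an adjusted p of 0.0319, and edgeR without mouse 3 gave -0.61 (adjusted p = 0.0161). Over the fits without one mouse the log2 fold change lay between -0.91 and -0.61.

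Summed markers of tubular segments that lie beyond the proximal tubule were also lower in most Ksp-Cre/Prdm16fl/fl kidneys. The 4 markers of the thick ascending limb summed to 2817 and 3763 CPM in Prdm16fl/fl kidneys and 2625, 2330 and 1236 CPM in Ksp-Cre/Prdm16fl/fl kidneys. For the distal convoluted tubule the sum was 1897 and 1172 CPM against 1098, 710.3 and 327 CPM. For intercalated cells it was 240.0 and 183 CPM against 139, 102 and 103 CPM, and for principal cells 317 and 268 CPM against 283, 140.1 and 237 CPM. No marker of these 4 lists was at 0, and of their 16 markers 0 had an adjusted p under 0.05 in edgeR, beside 0.872% of all genes called lower. At an unadjusted p under 0.05, 4 were lower (11.2% of all genes). In DESeq2, 3 of the 16 were lower at an adjusted p under 0.05 (5.33% of all genes). The part of cell numbers in the Bmp7 result was not tested.

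Bmp7 and Tgfb1 parted in every Ksp-Cre/Prdm16fl/fl kidney. On the TPM scale the ratio of Bmp7 to Tgfb1 was 0.978 and 0.992 in Prdm16fl/fl kidneys, close to equal amounts, and 0.457, 0.366 and 0.377 in Ksp-Cre/Prdm16fl/fl kidneys. The log2 ratio differed by -1.31 between the genotypes (two-sided exact permutation test, p = 0.1, Benjamini-Hochberg adjusted p = 0.6 over 6 ratios), and p = 0.1 is the smallest value that 2 against 3 mice can give. In the other 5 ratios (Tgfb2 and Tgfb3 to Tgfb1, Inhba to Inhbb, Tgfbr1 to Tgfbr2, Smad7 to Smad3) the groups overlapped, with exact permutation p from 0.7 to 1.0 and adjusted p = 1.0.

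The receptor genes were the most abundant of the 10 and differed least. Tgfbr1 (chromosome 4, 47353222 to 47414926, plus strand), the type I receptor that phosphorylates Smad2 and Smad3, had 146 and 135 CPM in Prdm16fl/fl kidneys and 172, 173 and 155 CPM in Ksp-Cre/Prdm16fl/fl kidneys. The groups did not overlap, with mouse 3 the nearest to the Prdm16fl/fl kidneys, and the log2 fold change was 0.24 (adjusted p = 0.335, standard error 0.12). Without mouse 3 it was 0.30 (adjusted p = 0.0703). Tgfbr2 (chromosome 9, 115916763 to 116004431, minus strand), the type II receptor that binds TGF-β first, had 144 and 147 CPM against 203, 190.0 and 118 CPM. Here Ksp-Cre/Prdm16fl/fl kidneys 1 and 2 were above and mouse 3 below both Prdm16fl/fl kidneys. The log2 fold change of Tgfbr2 was 0.23 (adjusted p = 0.652, standard error 0.24) with all mice and 0.44 without mouse 3 (adjusted p = 0.0189), and it was 0.08 to 0.44 over the fits without one mouse. The spread among the Ksp-Cre/Prdm16fl/fl kidneys, an SD of 45.9 CPM around 170.3 CPM, was larger than the difference between the groups. The summed macrophage markers were lowest in mouse 3, at 682 CPM against 886 to 1440 CPM in the other kidneys. The median macrophage marker was not, with a log2 difference from the Prdm16fl/fl mean of -0.06 in mouse 3 and -0.25 in Prdm16fl/fl mouse 1. The part of these markers in the Tgfbr2 level was not tested.

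Smad3 (chromosome 9, 63554048 to 63665276, minus strand), the transcription factor through which TGF-β and activin act on target genes, had the smallest unadjusted p of the 10. It stood at 57.8 and 55.5 CPM in Prdm16fl/fl kidneys and at 79.6, 72.8 and 84.0 CPM in Ksp-Cre/Prdm16fl/fl kidneys, with tight groups far apart for their spread. The means were 56.7 ± 1.63 CPM (SD, n = 2) and 78.8 ± 5.67 CPM (SD, n = 3), 1.39-fold apart, with a log2 fold change of 0.48 (adjusted p = 0.111 in edgeR, standard error 0.12) that lay between 0.43 and 0.53 with any mouse left out. DESeq2 gave an adjusted p of 0.0534, just over the threshold, and edgeR without mouse 3 gave 0.43 (adjusted p = 0.0206).

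Smad7, the inhibitory Smad induced by TGF-β as a feedback, is listed on the plus strand of chromosome 18 from 75500436 to 75529006. Its level was 13.6 and 9.97 CPM in Prdm16fl/fl kidneys and 16.4, 13.7 and 16.5 CPM in Ksp-Cre/Prdm16fl/fl kidneys. The lowest Ksp-Cre/Prdm16fl/fl kidney, mouse 2, exceeded Prdm16fl/fl mouse 1 by less than 0.1 CPM, so the separation was marginal. The log2 fold change was 0.39 (adjusted p = 0.355, standard error 0.20), and 0.35 without mouse 3 (adjusted p = 0.226). The spread of the Prdm16fl/fl kidneys showed in the fits without one of them, which ran from 0.18 to 0.63 over all mice left out.

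**Figure D3:**
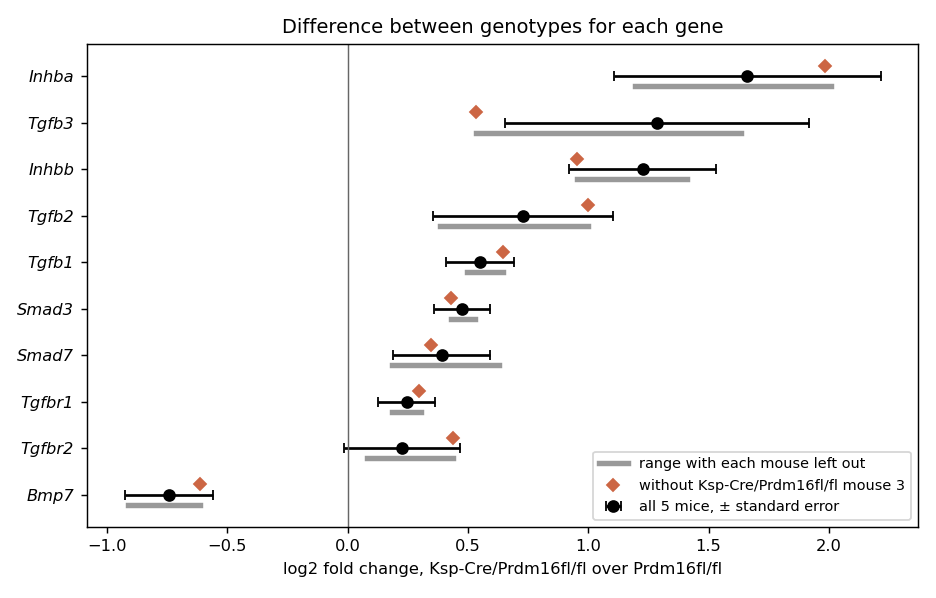
Log2 fold change between genotypes (x axis) of the 10 genes (y axis), from edgeR. Black points with whiskers are the fit of all 5 mice with its standard error, grey bars span the fits without one mouse, and orange diamonds leave out Ksp-Cre/Prdm16fl/fl mouse 3. Bmp7 lies below 0 throughout (-0.91 to -0.61), and Tgfb3 moves the most without mouse 3, from 1.28 to 0.53.

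Per length, the 10 genes kept much the same order of levels across the kidneys. Tgfbr2 led with 58.9 to 114 TPM, followed by Tgfbr1 with 43.7 to 72.1 TPM and Tgfb1 with 25.8 to 53.2 TPM, each above the next in all 5 kidneys. Smad3 (20.9 to 38.6 TPM) and Bmp7 (14.5 to 28.8 TPM) were not separable by level over all kidneys, since Smad3 was the higher in 3 of 5, namely the Ksp-Cre/Prdm16fl/fl kidneys. Smad7 (4.67 to 9.87 TPM) and Inhbb (3.23 to 11.6 TPM) came next and changed places in 1 kidney, and Tgfb3 (1.78 to 10.4 TPM) and Tgfb2 (1.86 to 5.79 TPM) overlapped. Inhba was last in every kidney, at 0.16 to 1.17 TPM, a value divided by a merged exon length of 14541 bp, the longest of the 10.

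Beyond the 10 genes, 135 others of the pathway were followed in 7 lists, and 106 of them had counts enough to test. In edgeR, 0 were called higher and 1, Nox4, was called lower, while 36 were higher and 3 lower at an unadjusted p under 0.05 (7.64% and 11.2% of all genes). DESeq2 called 18 higher and 1 lower (1.87% and 5.33% of all genes), and edgeR without Ksp-Cre/Prdm16fl/fl mouse 3 called 36 higher and 2 lower (7.82% and 11.0%). Of the genes named below, Bmp15, Gdf15, Bmp6, Bmpr1a, Skil, Smad5, Bmp1, Lrrc32, Fbn1, Nbl1, Klf10, Bhlhe40, Atoh8 and Id3 were among those higher without this mouse, and the lower ones were Kcp and Nox4. In 50 genes all Ksp-Cre/Prdm16fl/fl kidneys lay above both Prdm16fl/fl kidneys, in 5 they lay below and in 51 the groups overlapped, where 20.3% of all genes lay above and 21.3% below. The median log2 fold change of the 106 genes was 0.33, with 89 positive, beside 0.04 over all 16394 genes, of which 8857 were positive.

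**Figure D4:**
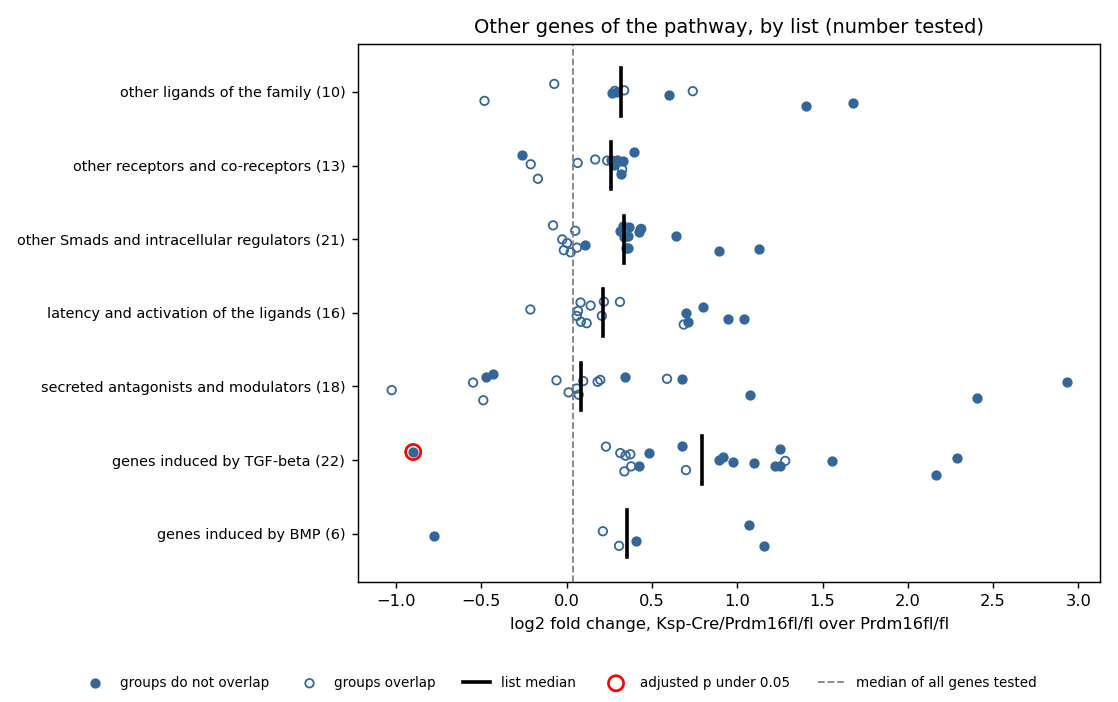
Log2 fold change between genotypes (x axis) of the tested genes in 7 pathway lists (y axis, the number tested in brackets; vertical scatter within a list has no meaning). Filled points are genes whose groups do not overlap, black bars are list medians and the dashed line is the median of all genes tested. Nox4 (-0.90) is circled as the gene with an adjusted p under 0.05, and the list of genes induced by TGF-β has the highest median, 0.79.

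Of 27 other ligands of the family, 10 were tested and 8 had a positive log2 fold change, with a list median of 0.32. Gdf15, a stress-induced ligand, had 16.9 and 17.7 CPM in Prdm16fl/fl kidneys and 39.4, 32.6 and 94.6 CPM in Ksp-Cre/Prdm16fl/fl kidneys, with mouse 3 far above the rest (log2 fold change 1.68, adjusted p = 0.152). Without mouse 3 the log2 fold change of Gdf15 was 1.06 (adjusted p = 0.0019). For Bmp6, a regulator of iron balance through hepcidin, the values were 82.4 and 84.0 CPM against 102, 110.0 and 166 CPM (log2 fold change 0.60, adjusted p = 0.239). Bmp15, known from the oocyte, was near the limit of detection at 0.404 and 0.502 CPM against 1.14, 1.30 and 1.20 CPM (log2 fold change 1.41, adjusted p = 0.13). Of these, Gdf15 had an adjusted p under 0.05 in DESeq2 (0.0051). Mstn, Gdf1, Bmp10 and Lefty2 had 0 reads in all 5 libraries.

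The 13 tested receptors and co-receptors, of 17, lay in a narrow range, from -0.26 to 0.39 with a median of 0.26, and 10 were positive. The smallest p-values were those of BMP receptors. Acvr1, a type I receptor, had 21.2 and 20.5 CPM against 28.2, 25.8 and 28.0 CPM (log2 fold change 0.39, adjusted p = 0.18). Bmpr1a, a type I receptor, had 85.1 and 83.5 CPM against 106, 109.6 and 99.5 CPM (log2 fold change 0.32, adjusted p = 0.197), and Bmpr2, a type II receptor, had 93.2 and 90.1 CPM against 103, 107 and 119 CPM (log2 fold change 0.26, adjusted p = 0.297). In each of the 3 genes the groups did not overlap.

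Among Smads and intracellular regulators 21 of 22 genes were tested, 18 were positive, and in 13 all Ksp-Cre/Prdm16fl/fl kidneys lay above both Prdm16fl/fl kidneys, which held for 20.3% of all genes. The list median was 0.33. Skil, a corepressor of Smads and itself a TGF-β target, had 58.9 and 51.9 CPM in Prdm16fl/fl kidneys and 79.1, 82.0 and 98.0 CPM in Ksp-Cre/Prdm16fl/fl kidneys (log2 fold change 0.64, adjusted p = 0.0914). Ski, the related corepressor that binds PRDM16, had 105 and 104 CPM against 131, 128 and 136 CPM (log2 fold change 0.33, adjusted p = 0.184). Smad5, of the BMP branch, had 77.9 and 74.5 CPM against 99.2, 95.8 and 96.2 CPM (log2 fold change 0.35, adjusted p = 0.156). DESeq2 called Skil (adjusted p = 0.0156) and none of the other genes of this list.

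Of the 16 genes for latency and activation of the ligands, all were tested and 15 were positive, with a median of 0.21 that was 0.49 without Ksp-Cre/Prdm16fl/fl mouse 3. The list's median difference from the Prdm16fl/fl mean was 0.45 and 0.42 in Ksp-Cre/Prdm16fl/fl kidneys 1 and 2 and -0.27 in mouse 3. Bmp1, a protease that processes procollagen and frees ligands from matrix, had 34.4 and 36.4 CPM against 55.3, 51.7 and 66.6 CPM (log2 fold change 0.71, adjusted p = 0.0782). Lrrc32, which tethers latent TGF-β at the cell surface, had 14.3 CPM in both Prdm16fl/fl kidneys against 23.1, 21.2 and 25.2 CPM (log2 fold change 0.70, adjusted p = 0.0795). Fbn1, the microfibril protein that holds latent complexes, had 21.3 and 23.6 CPM against 46.6, 41.1 and 29.5 CPM (log2 fold change 0.80, adjusted p = 0.131). DESeq2 called all 3 of these genes.

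The secreted antagonists and modulators were the least uniform of the 7 lists, with 12 positive and 6 negative among 18 tested of 21 and a median of 0.08 that was 0.29 without Ksp-Cre/Prdm16fl/fl mouse 3. Nbl1, a BMP antagonist, had 14.9 and 19.5 CPM in Prdm16fl/fl kidneys and 32.6, 29.9 and 46.2 CPM in Ksp-Cre/Prdm16fl/fl kidneys (log2 fold change 1.07, adjusted p = 0.0931). Kcp, a secreted enhancer of BMP7 signalling, had 21.4 and 21.0 CPM against 16.01, 15.59 and 14.13 CPM and lay below in all 3 Ksp-Cre/Prdm16fl/fl kidneys, as Bmp7 did (log2 fold change -0.48, adjusted p = 0.154). DESeq2 called Nbl1 (adjusted p = 0.0039).

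Genes induced by TGF-β had the highest list median, 0.79 over 22 tested of 23, with 21 positive and 12 higher at an unadjusted p under 0.05 (7.64% of all genes). Relative to the Prdm16fl/fl mean, the median log2 difference over the list was 0.69, 0.86 and 0.50 in Ksp-Cre/Prdm16fl/fl kidneys 1, 2 and 3, and -0.12 and 0.12 in the Prdm16fl/fl mice. Klf10, an early TGF-β response gene, had 35.1 and 41.2 CPM in Prdm16fl/fl kidneys and 59.9, 84.3 and 101 CPM in Ksp-Cre/Prdm16fl/fl kidneys (log2 fold change 1.10, adjusted p = 0.085). Bhlhe40, a transcriptional repressor that also belongs to the clock, had 170.4 and 157 CPM against 242, 301 and 242 CPM (log2 fold change 0.68, adjusted p = 0.0962). DESeq2 called 9 genes of the list higher (1.87% of all genes), and edgeR without mouse 3 called 14 higher (7.82%).

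Nox4, the one gene of the list with a negative log2 fold change, fell in Ksp-Cre/Prdm16fl/fl kidneys, which had 147, 137 and 141 CPM where the Prdm16fl/fl kidneys had 246 and 282 CPM. It encodes an NADPH oxidase that TGF-β induces in fibroblasts and that proximal tubules make in quantity. The means were 264 ± 25.7 CPM (SD, n = 2) and 142 ± 4.92 CPM (SD, n = 3), a log2 fold change of -0.90 (adjusted p = 0.0412 in edgeR, standard error 0.12), close to the threshold. Over the alternatives the adjusted p ran from 1.1e-06 in DESeq2 to 0.505 without Prdm16fl/fl mouse 3, with the log2 fold change between -1.0 and -0.76. The call was kept without Ksp-Cre/Prdm16fl/fl mouse 3 (adjusted p = 0.0017) and lost without each of the other mice, where the adjusted p was 0.131 to 0.505. The sum of proximal tubule markers was also lower in Ksp-Cre/Prdm16fl/fl kidneys, at 7453, 9417 and 11700 CPM in mice 1, 2 and 3. Within this genotype Nox4 was highest in mouse 1, where that sum was lowest. The median proximal tubule marker ordered these mice otherwise and was lowest in mouse 3. Its log2 difference from the Prdm16fl/fl mean was -1.054, -1.045 and -1.744 in mice 1, 2 and 3. The part of the proximal tubule in the Nox4 result was not tested.

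Of 9 genes induced by BMP, 6 were tested, 5 were positive and the median was 0.36, or 0.23 without Ksp-Cre/Prdm16fl/fl mouse 3. Atoh8, a transcription factor induced through Smad1 and Smad5, had 2.23 and 3.30 CPM against 5.96, 5.43 and 7.06 CPM (log2 fold change 1.15, adjusted p = 0.115). Id3, an inhibitor of DNA binding and a classical BMP target, had 104 and 123 CPM against 172, 178 and 363 CPM, with mouse 3 far above (log2 fold change 1.07, adjusted p = 0.197). Without mouse 3 the log2 fold change of Id3 was 0.63 (adjusted p = 0.0066). Id2, of the same family, had 368 and 379 CPM against 468, 472 and 544 CPM (log2 fold change 0.40, adjusted p = 0.201). In each of these genes the groups did not overlap. DESeq2 called Atoh8 and Id3.

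The genes nearest in pattern to the 2 signalling genes with the smallest p-values were found by the root mean square difference of centred log2 CPM over the 5 kidneys, among 115 other genes of the members and lists. For Smad3 these were Tgfbi (0.0471), a matrix protein induced by TGF-β, Acvr1 (0.0532) and Id2 (0.0695), where the median over the 115 genes was 0.309. For Bmp7 they were Hey1 (0.191), a transcriptional repressor, Nox4 (0.192) and Kcp (0.193), beside a median of 0.585. Hey1 was low, at 1.685 and 1.65 CPM in Prdm16fl/fl kidneys and 1.08, 0.827 and 0.999 CPM in Ksp-Cre/Prdm16fl/fl kidneys. A small constant was added to CPM before the log, which damps differences most in such a gene. Its effect on the order was not tested. With 5 kidneys in 2 groups, such a likeness is a description of shared direction and spread.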

How the data were processed

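For each mouse the authors deposited raw counts per gene, without normalization, and the TPM and FPKM derived from them by merged exon length and library total. Both scales were recomputed from the counts and differed by at most 4.65e-06. Per the paper's methods, oligo(dT)-selected mRNA was sequenced from both ends and reads with adapters or low quality were removed. The submitters' processing notes name CASAVA, featureCounts 2.0.1, DESeq2 1.16.1 and hg38, a human build, although the files hold mouse genes. The aligner and the strand setting are not given in the sources used here. Positions are as in the files. Broken lines of 5 genes were rejoined. The deposited counts held 0 genes of the mitochondrial chromosome, so the library totals include no reads of such genes.

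Samples were grouped by genotype from the labels. No label paired the mice. Counts were filtered with filterByExpr, TMM-scaled and tested with the quasi-likelihood test of edgeR 4.0.16 (R 4.3.3) on all 5 libraries without covariates, and calls were made where the adjusted p (Benjamini-Hochberg, over 16394 genes) was under 0.05. Standard errors are the log2 fold change divided by the square root of F. Levels between genes were compared in TPM. Named genes are the 10 members, Prdm16, of each pathway list the 3 with the smallest p and any called, and the 3 nearest in pattern to each of the 2 members with the smallest p. One gene under this rule is not reported here. The members and lists were chosen with earlier results of these data known. Alternatives were DESeq2 1.42.0, other scalings and filters, limma 3.58.1 on log2(FPKM + 1) and log2(FPKM + 0.1), removal of the trend on gene length and GC content (loess, span 0.3, 15223 genes), a log2 fold change of at least 1, the mouse number as a block, and leaving out each mouse. The fits were tested on simulated data first. Of 10 pairs of libraries the closest had a chi-square of counts per degree of freedom of 9.89, so none was a duplicate. Counting error is one part of the spread, which the replicates measure. Figures were drawn with matplotlib 3.10.9.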

Additional observations from a re-analysis of the deposited data

How the results depend on the processing

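No log2 fold change of the 10 genes, or of the pathway genes named for their p, changed sign under the alternatives that gave a value. Inhba and Bmp15 had none with limma, whose filter on FPKM they did not pass, Bmp15 had too few reads for the filter of 10 counts in every library, and Tgfbi and Hey1, named for their pattern, were not followed. Over the alternative fits of the 10 genes 129 values kept their side of the threshold and 9 passed it. Counts of calls moved far more. Over all genes, 17 higher and 143 lower became 303 and 863 with DESeq2, 63 and 408 with no filter beyond 1 count, 5 and 36 with the length and GC trend removed, and 0 and 0 with the mouse number as a replicate block. The calls of lower genes were 37 with scaling by library size, where the median over all genes was 0.15 in place of 0.038 and 14 genes were higher, 51 with limma on log2(FPKM + 1) and 34 on log2(FPKM + 0.1). With each mouse left out they ranged from 0 to 1266 higher and from 0 to 1787 lower, the high counts coming from leaving out Ksp-Cre/Prdm16fl/fl mouse 3 and the 0 from leaving out any other mouse. Of the 10 signalling genes, 1 was called higher and 1 lower with DESeq2, 0 to 6 higher and 0 to 1 lower with each mouse left out, and 0 with the replicate block. Of the pathway genes, 18 were called higher with DESeq2 and 1 with no filter, and 0 to 36 higher and 0 to 2 lower with each mouse left out. The 1 lower call, Nox4, became 0 with scaling by library size, the replicate block, both limma fits, the trend removed and the added threshold of 1 on the log2 scale. With the replicate block, 2061 genes had an unadjusted p under 0.05. A term for each mouse number leaves this fit fewer degrees of freedom than the main fit. Ksp-Cre/Prdm16fl/fl mouse 2, alone with its number, then adds nothing to the genotype difference. How far this accounts for the lost calls was not tested. The mice of the 2 genotypes share numbers 1 and 3 but differ in genotype and so are different animals. No label pairs them, so the block pairs nothing known. Deviations of same-numbered mice from their group means correlated at 0.0010 and -0.022. The deviations of the 2 Prdm16fl/fl mice mirror each other, so these values cannot decide whether a mouse number marks a shared batch. The number of the 10 genes higher without overlap, 6, was 7 with scaling by library size, 5 with DESeq2 size factors and 6 to 8 with each mouse left out, and the number lower stayed at 1. With each mouse left out, the log2 difference of a ratio ran from -0.155 to 0.330 for Tgfb2 to Tgfb1, from -0.126 to 1.015 for Tgfb3 to Tgfb1, from -0.069 to 1.025 for Inhba to Inhbb, from -0.136 to 0.181 for Tgfbr1 to Tgfbr2 and from -0.264 to 0.127 for Smad7 to Smad3. Each of these 5 changed sign in at least 1 such fit, the second value below 0 for Tgfbr1 to Tgfbr2 being -0.019 without Prdm16fl/fl mouse 3. Bmp7 to Tgfb1 stayed between -1.41 and -1.25.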
